A study of Bos taurus with 24 samples.

Results

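The transcripts of 9 complement genes, CFB, C2, C3, C1R, C1S, CFD, CFI, SERPING1 and CD55, were followed in bovine dermal fibroblasts of 2 breeds before and after lipopolysaccharide (LPS), the cell wall component of Gram-negative bacteria that Toll-like receptor 4 senses. A gene was taken by its symbol in the count tables, and each of the 9 stood on 1 row of its own, out of 27371 gene symbols on 59846 rows. The fibroblasts, the matrix-producing cells of connective tissue, came from shoulder skin of 4 Holstein heifers, a dairy breed, and 4 Angus heifers, a beef breed, all about 19 months old by the study's methods. The lines had been frozen at the third passage and were revived, regrown and reseeded before LPS. A culture thus stood for the expanded fibroblasts of 1 animal and not for whole skin. Each was exposed to LPS of E. coli O111:B4 at 100 ng/ml and sampled at 0, 2 and 8 h, which gave 24 samples in 6 groups of 4. The 0 h cultures received no LPS and served as controls for the same animals. Untreated cultures at 2 or 8 h were not analysed here, so LPS and time in culture cannot be told apart. Because duplicate wells were pooled into 1 sample per animal and hour, the spread within a group holds differences between animals, cultures and libraries together.

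Complement is a cascade of plasma proteases and binding proteins that marks microbes for uptake, recruits leukocytes and can open pores in membranes. The classical route starts with C1, in which the proteases C1r and C1s act in turn and C1s cleaves C4 and C2. The alternative route starts from C3 and uses factor B, encoded by CFB, which factor D, encoded by CFD, cuts to form the C3-cleaving enzyme. Factor I, encoded by CFI, inactivates the fragments C3b and C4b, the C1 inhibitor, encoded by SERPING1, blocks C1r and C1s, and CD55 on the cell surface speeds the decay of the C3-cleaving enzymes. The liver makes most circulating complement, and fibroblasts are a known local source of several components.

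On the bovine build UMD v3.1, CFB lay on chromosome 23 at 27225266 to 27231292 and C2 directly beside it at 27231726 to 27243367, both on the minus strand and 433 bases apart. C1R (chromosome 5, 103737161 to 103747961, plus strand) and C1S (chromosome 5, 103768065 to 103779250, minus strand) were also neighbours, 20103 bases apart. C3 lay on chromosome 7 at 18989627 to 19025593 on the plus strand and CFD on the same chromosome at 45030310 to 45032846, also on the plus strand. CFI was on chromosome 6 at 16765034 to 16815355 on the plus strand, SERPING1 on chromosome 15 at 82159474 to 82172143 on the plus strand and CD55 on chromosome 16 at 5105570 to 5124229 on the minus strand. Every row spanned the gene from start to end with its introns. SERPING1 alone overlapped another gene row, LOC100847889 on the opposite strand, by 458 bases, and without strand-specific counting reads there cannot be assigned to either gene. The 433 bases between CFB and C2 held a median of 2 counts per sample and at most 47.

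Libraries held between 51014538 and 104406293 counts. A level is stated in CPM, the counts in a library of 1000000 after scaling by trimmed mean of M-values (TMM), where 1 CPM stood for 51.0 to 104.4 counts and 3 counts, taken as the detection floor for counting error only, for 0.029 to 0.059 CPM. No gene length was used, so levels are compared between samples of the same gene only. All 10 fibroblast markers had a median of at least 1 CPM, as did 0 of 6 keratinocyte, 1 of 7 leukocyte, 2 of 5 endothelial, 2 of 5 melanocyte and 3 of 4 pericyte or smooth muscle markers. The last list summed to 169 to 314 CPM at 0 h, 254 to 445 CPM at 2 h and 129 to 257 CPM at 8 h, and its part in the changes with the hour was not tested. The summed keratinocyte markers reached 12.3 to 14.7 CPM in the 3 samples of Holstein animal 1 and 0.45 to 1.57 CPM in the other animals, and KRT1 was at 0 throughout. In 4 samples (Angus 4, Holstein 2 and Holstein 4 at 0 h and Angus 3 at 2 h) each count of the collagen gene COL1A1 covered 66.2 to 67.1 bases, whereas it covered 111.8 to 119.0 bases in the other 20. For the complement genes that could be compared, covered bases per count in those 4 samples stayed close to the range of the rest, and values without them are given where they alter a call. The LPS response genes IL8, NFKBIA and IL6 were called at 2 h, with log2 changes of 8.36, 4.6 and 6.46. In bulk RNA, fewer cells of a type and less RNA per cell cannot be told apart.

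Comparisons were made with edgeR's likelihood-ratio test, and a gene was called at a false discovery rate (FDR) under 0.05 over all rows, a fold change of at least 2 and an average above 1 CPM. With the breeds combined, 1 of 6 tested members was called at 2 h against 0 h, beside 2.82% of all rows tested. At 8 h against 0 h 2 of 7 were called, beside 1.42%, and at 8 h against 2 h 2 of 7, beside 2.76%. All of these were higher at the later hour. The median log2 change of the tested members was -0.01 at 2 h and 0.64 at 8 h, where that of all rows was -0.01. In Holstein cultures 1 of 6 was called at 2 h (3.14% of all rows) and 2 of 7 at 8 h (2.51%). In Angus cultures 1 of 6 was called at 2 h (2.98%) and 1 of 7 at 8 h (0.863%). The member tested at 8 h but not at 2 h was C2, which passed the CPM filter mainly through its 8 h samples. Between breeds, 0 of 5 were called at 0 h (3.81% of all rows), 0 of 6 at 2 h (4.45%) and 1 of 7 at 8 h (3.24%). At an FDR under 0.05 without the fold limit these breed counts were 1, 1 and 1 (13.8%, 20.1% and 16.5% of all rows).

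**Figure D1:**
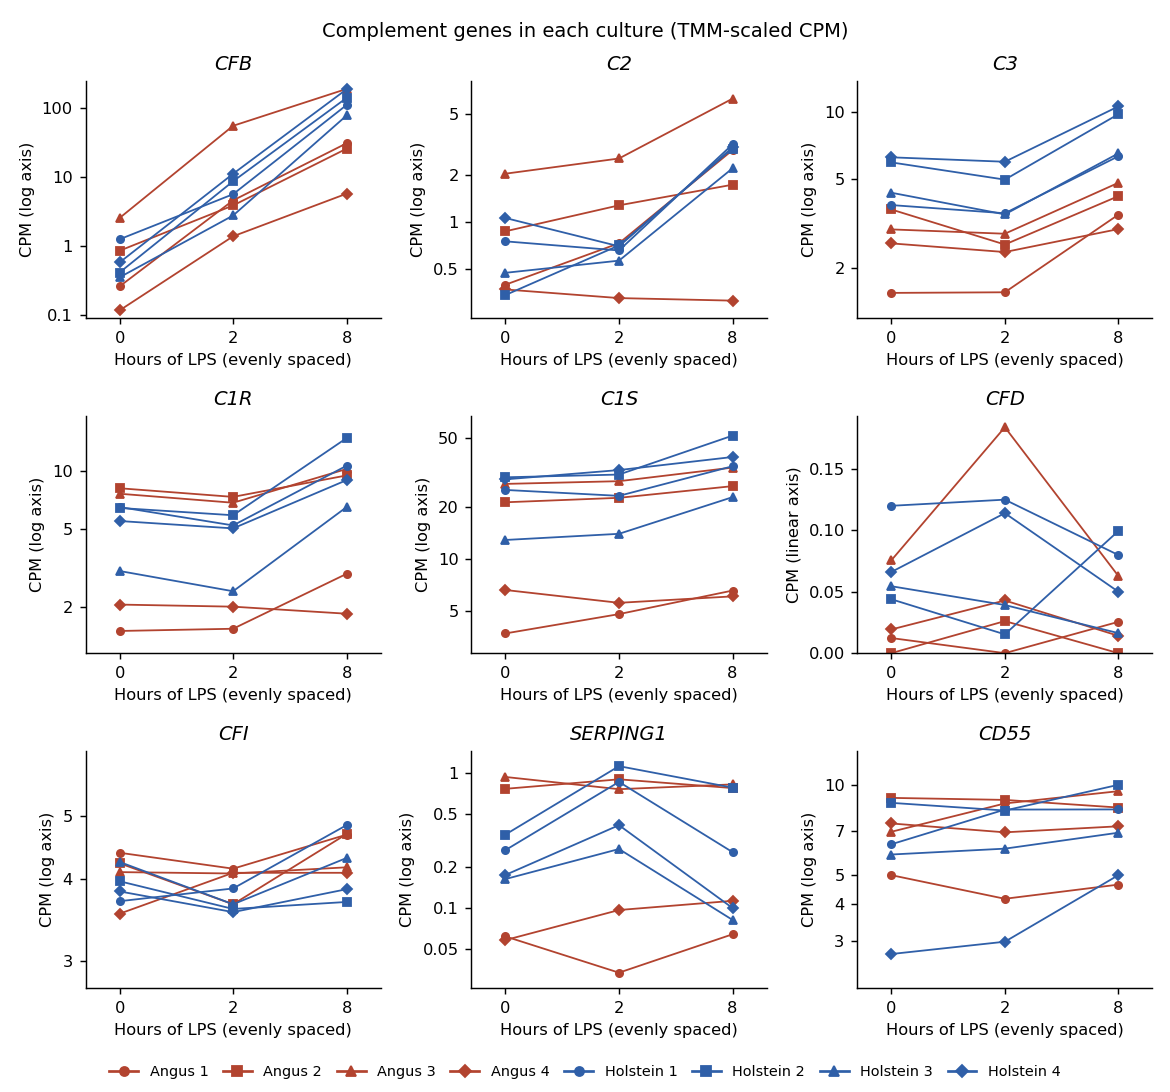
TMM-scaled CPM of the 9 complement genes (y axis, log scale except for CFD) against hours of LPS (x axis, evenly spaced), with a line for each of 4 Angus and 4 Holstein animals. CFB rose in 8 of 8 animals, from at most 2.52 CPM at 0 h to between 5.67 and 186.0 CPM at 8 h, and all Holstein values of C3 lay above all Angus values at each hour.

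CFB was the member that rose most and did so in 8 of 8 animals at 2 h and at 8 h (17.8% and 13.8% of all rows were higher in all 8). At 0 h it stood at 0.258, 0.847, 2.52 and 0.116 CPM in Angus animals 1 to 4 and at 1.24, 0.41, 0.349 and 0.573 CPM in Holstein animals 1 to 4. At 2 h the same Angus cultures held 4.53, 3.83, 54.4 and 1.37 CPM and the Holstein cultures 5.57, 8.57, 2.74 and 11.0 CPM. At 8 h the Angus cultures reached 30.4, 25.4, 186.0 and 5.67 CPM and the Holstein cultures 109.0, 138.0, 76.8 and 184.0 CPM. Angus animal 3 was the highest of all 8 at each hour and Angus animal 4 the lowest, so that the breeds overlapped throughout. Without Angus 3, every Holstein culture at 8 h lay above every other Angus culture. The group means at 8 h were 61.9 ± 83.6 CPM in Angus and 127.0 ± 45.7 CPM in Holstein cultures (SD, n = 4 animals each).

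With the breeds combined, CFB rose 14.6-fold at 2 h (log2 fold change 3.87, SE 0.68, FDR = 6.33e-06) and 119.0-fold at 8 h (6.89, SE 0.62, FDR = 2.51e-15). By size of the log2 change it ranked 28 among 20157 rows at 2 h and 4 among 20368 rows at 8 h. Between 2 h and 8 h it rose a further 8.25-fold (log2 3.05, SE 0.69, FDR = 0.000482). Without the samples with the other COL1A1 counting, the CFB rise was 5.09-fold at 2 h (FDR = 0.0019) and 17.6-fold from 2 to 8 h (FDR = 2.01e-08), and without Angus animal 3 the log2 rise from 2 to 8 h was 3.92. In Holstein cultures the rise was 10.8-fold at 2 h (log2 3.44, SE 0.5, FDR = 8.49e-09) and 198.0-fold at 8 h (7.63, SE 0.4, FDR = 9.01e-46). In Angus cultures it was 17.1-fold at 2 h (log2 4.1, SE 1.12, FDR = 0.0127) and 66.1-fold at 8 h (6.05, SE 1.04, FDR = 0.000361). Without Holstein animal 1 the Holstein log2 rise of CFB was 4.07 at 2 h and 8.26 at 8 h, and without Angus animal 3 the Angus rise at 2 h was 2.99 (FDR = 0.00232). The Angus call at 2 h was lost without Angus animal 1 (FDR = 0.0704) or animal 2 (FDR = 0.0623). Leaving out the samples with the other COL1A1 counting removes Angus 3 at 2 h (54.4 CPM) and Angus 4 at 0 h (0.116 CPM). The animals then differ between the hours, and the log2 change was 1.41 (FDR = 0.263). With edgeR's quasi-likelihood test the Angus FDR was 0.0864 at 2 h and 0.0627 at 8 h.

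The breeds could not be separated in CFB level. Holstein against Angus gave a log2 difference of -1.2 at 2 h (SE 0.95, FDR = 0.405) and of 1.04 at 8 h (SE 0.81, 95% interval -0.54 to 2.62, FDR = 0.412). At 0 h CFB was below the CPM filter, and the difference in mean log2(CPM + 1) was -0.111 (exact permutation P = 0.8286, two-sided). The direction at 2 h rested on Angus animal 3, without which the CFB log2 difference was 1.11 (FDR = 0.107). At 8 h it was 2.63 without that animal (FDR = 6e-05).

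Ratios within the animal removed the different starting levels of CFB. From 0 to 2 h CFB rose 17.6, 4.52, 21.6 and 11.9-fold in Angus animals 1 to 4 and 4.48, 20.9, 7.86 and 19.3-fold in Holstein animals 1 to 4, ranges that overlap. From 2 to 8 h it rose 6.7, 6.63, 3.43 and 4.13-fold in Angus and 19.5, 16.2, 28.0 and 16.7-fold in Holstein cultures. In that step every Holstein ratio exceeded every Angus ratio, which held for 6.17% of the 20268 rows compared, and the step was singled out after the values were seen. From 0 to 8 h the Angus cultures rose 118.0, 30.0, 74.1 and 49.1-fold and the Holstein cultures 87.4, 338.0, 220.0 and 322.0-fold, with Holstein animal 1 inside the Angus range. In the test of breed by LPS, 0 of 7 members were called at 8 h (0.0982% of all rows) and 0 of 6 at 2 h (0.278%), with a log2 difference in the 8 h response of CFB of 1.57 (SE 1.22, FDR = 1). With the animal as a block, which the shared animals across hours allow, that difference was 1.82 (SE 0.46, FDR = 0.0118) and CFB was called, beside 0.491% of all rows in the blocked fit. The 0 h samples of Holstein 2, Holstein 4 and Angus 4 were among those with the other COL1A1 counting. The blocked fit was not repeated without these samples or with an animal left out. At 2 h the blocked CFB difference was -0.15 (95% interval -1.26 to 0.96, FDR = 0.963).

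**Figure D2:**
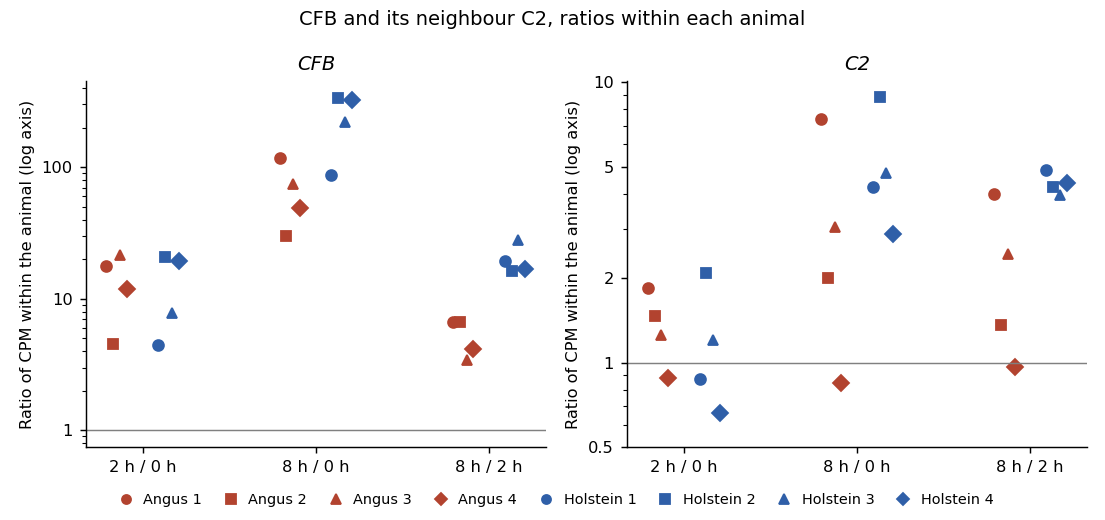
Ratio of TMM-scaled CPM between hours within each animal (y axis, log scale) for CFB and C2, by pair of hours (x axis), with a point for each of 4 Angus and 4 Holstein animals. The 8 h to 2 h ratios of CFB run from 3.43 to 6.7 in Angus and from 16.2 to 28.0 in Holstein animals, and those of C2 in Angus animal 4 lie below 1 in all 3 pairs.

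C2, the classical-route counterpart of factor B and its neighbour on chromosome 23, rose less than CFB, and its rise was seen at 8 h. The Angus cultures held 0.393, 0.87, 2.05 and 0.366 CPM at 0 h, 0.728, 1.28, 2.57 and 0.322 CPM at 2 h and 2.91, 1.74, 6.26 and 0.31 CPM at 8 h. The Holstein cultures held 0.749, 0.337, 0.469 and 1.06 CPM at 0 h, 0.654, 0.705, 0.562 and 0.696 CPM at 2 h and 3.17, 2.98, 2.22 and 3.03 CPM at 8 h. All 4 Holstein cultures at 8 h lay above all Holstein cultures at 0 and 2 h, whereas Angus animal 4 did not gain and Angus animal 3 was again the highest of the 8. CFB changed more than C2 in 8 of 8 animals at 2 h and at 8 h.

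C2 rose 3.58-fold at 8 h with the breeds combined (log2 1.84, SE 0.46, FDR = 0.0018), 4.45-fold in Holstein cultures (2.15, SE 0.32, FDR = 6.24e-09) and 3.04-fold in Angus cultures, where the test was not passed (1.6, SE 0.8, FDR = 0.369). By library totals C2 was under 1 CPM in every Holstein culture at 0 h, so it passed the filter there through its 8 h samples alone. Its Holstein FDR was at most 0.00324 in the 12 alternative fits, among them the fit with no filter. With the animal as a block the Angus value was 1.35 (SE 0.38, FDR = 0.00624) and C2 was called, beside 1.23% of all rows in that fit. Between 2 and 8 h C2 rose 3.02-fold with the breeds combined (log2 1.59, SE 0.45, FDR = 0.0042). Without Angus 3, C2 fell below the CPM filter at 8 h against 0 h and was not tested. At 2 h it was below the filter, and the mean paired change in log2(CPM + 1) was 0.107 (exact paired permutation P = 0.2344, two-sided, n = 8 animals). The breeds did not differ beyond their spread in C2 at 8 h (log2 0.02, 95% interval -1.25 to 1.3, FDR = 0.987, and 0.78 with FDR = 0.353 without Angus 3).

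**Figure D3:**
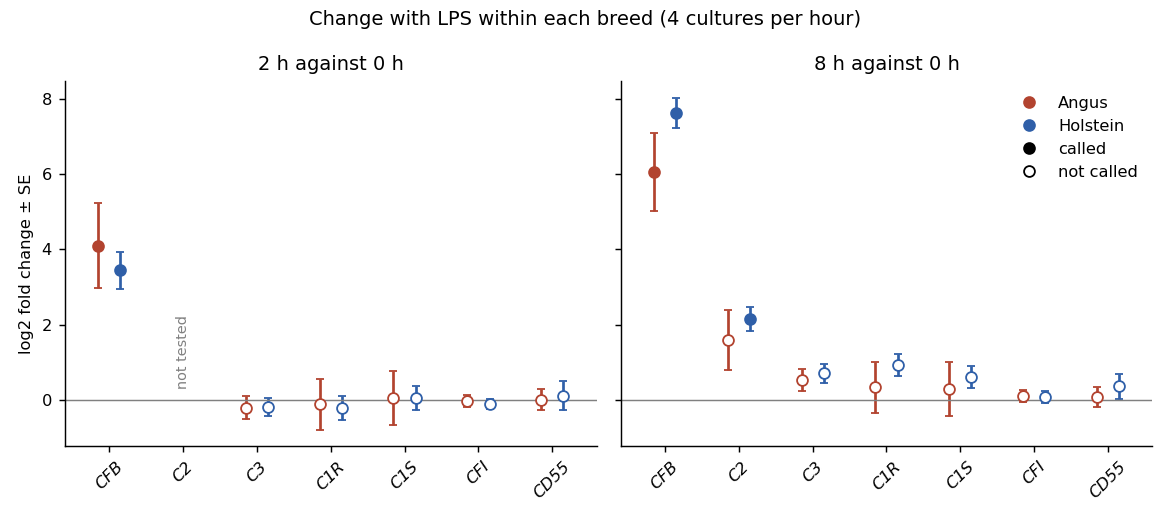
Log2 fold change against 0 h with its standard error (y axis) for each tested member (x axis), at 2 h and 8 h, in Angus and Holstein cultures of 4 animals per hour. Filled points passed the call rule. CFB was called in both breeds at both hours and C2 in Holstein cultures at 8 h.

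C3, the protein on which all routes converge, differed between the breeds at every hour. At 0 h the Angus cultures held 1.54, 3.65, 2.97 and 2.57 CPM and the Holstein cultures 3.82, 5.94, 4.34 and 6.26 CPM. At 2 h they held 1.55, 2.54, 2.84 and 2.35 CPM against 3.51, 4.97, 3.47 and 5.98 CPM, and at 8 h 3.46, 4.19, 4.81 and 2.98 CPM against 6.33, 9.78, 6.52 and 10.6 CPM. Every Holstein culture exceeded every Angus culture at each hour, a pattern shown by 9.35%, 12.9% and 11.2% of all rows at 0, 2 and 8 h.

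C3 was 1.89-fold higher in Holstein cultures at 0 h (log2 0.92, SE 0.29, FDR = 0.0182), 1.92-fold at 2 h (0.94, SE 0.27, FDR = 0.00556) and 2.15-fold at 8 h (1.11, SE 0.24, FDR = 0.000322), where it passed the fold limit. In the quasi-likelihood test the FDR was 0.0645, 0.0322 and 0.0278. At 0 h the difference exceeded 2-fold and was called without Angus 2 or Holstein 1, and at 2 h without Angus 3, Holstein 1 or Holstein 3 or without the samples with the other COL1A1 counting (log2 1.06, FDR = 0.0025). The 0 h difference of C3 was the least stable. It was 0.58 (FDR = 0.652) without the samples with the other COL1A1 counting and had an FDR of 0.0504 without Angus 1, 0.0735 without Angus 4, 0.0782 without Holstein 2 and 0.0894 without Holstein 4. At 8 h, leaving out an animal in turn gave log2 differences of 0.96 to 1.22 in C3 with FDR at most 0.00624, of which those without Angus 4 or Holstein 4 were under the 2-fold limit. Without Holstein animal 1, which carried the keratinocyte transcripts, the C3 difference was 1.04, 1.04 and 1.22 at 0, 2 and 8 h (FDR = 0.014, 0.00526 and 0.000107). The summed fibroblast markers also ran higher in Holstein cultures, at 61700 to 125000 CPM against 37900 to 88400 CPM. This sum includes COL1A1, and both upper ends fell in groups that hold samples with the other COL1A1 counting. At 8 h, where no sample had it, the sums were 61700 to 79100 CPM against 37900 to 59000 CPM. The part of the fibroblast markers in the C3 difference was not tested.

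Between 2 and 8 h, C3 rose in 8 of 8 animals, as 17.6% of all rows did, by 1.27 to 2.22-fold in Angus and by 1.77 to 1.97-fold in Holstein cultures, and the combined log2 change was 0.84 (SE 0.3, FDR = 0.0276), so that with CFB and C2 3 of 7 members passed the FDR limit in this step, beside 23.8% of all rows. The C3 FDR lay between 0.0194 and 0.0759 when each animal was left out, passed the limit in 3 of 8 such fits and was 0.0586 without the samples with the other COL1A1 counting. Against 0 h, C3 at 8 h changed by 0.71 in Holstein (SE 0.25, FDR = 0.0312, and 0.0605 to 0.138 with any 1 animal left out), by 0.52 in Angus (SE 0.29, FDR = 0.445) and by 0.64 with the breeds combined (SE 0.31, FDR = 0.166). Without the samples with the other COL1A1 counting, the Holstein change of C3 was 1.03 (FDR = 0.0082), past the fold limit. With the animal as a block the 3 changes of C3 were 0.7 (FDR = 4.91e-11), 0.56 (FDR = 0.0198) and 0.63 (FDR = 5.14e-08). At 2 h C3 was slightly below its 0 h level in 7 of 8 animals, with a blocked log2 change of -0.2 (FDR = 0.0444, against 0.757 without the block). In that blocked fit 9575 of 20157 rows passed the FDR limit. The response itself did not differ between breeds beyond its error, with a log2 difference of 0.18 at 8 h (95% interval -0.57 to 0.93, FDR = 1).

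C1R and C1S, the protease pair of C1, changed by less than 2-fold with LPS in the comparisons on all animals. There C1R passed the FDR limit in Holstein cultures at 8 h and C1S did not pass it. At 0 h C1R stood at 1.5, 8.12, 7.61 and 2.05 CPM in Angus and at 6.5, 6.43, 3.05 and 5.51 CPM in Holstein animals 1 to 4. At 8 h the values were 2.95, 9.45, 10.2 and 1.84 CPM against 10.6, 14.7, 6.5 and 8.94 CPM. The Angus cultures fell into a low pair (animals 1 and 4) and a high pair (animals 2 and 3) at every hour, and the Holstein cultures lay mostly between or above them. C1S showed the same split, with 3.72, 21.3, 27.2 and 6.63 CPM in Angus and 25.1, 29.7, 12.9 and 28.9 CPM in Holstein cultures at 0 h, and 6.58, 26.4, 33.8 and 6.09 CPM against 34.4, 51.7, 22.8 and 38.9 CPM at 8 h.

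Both proteases were higher at 8 h than at 0 h in 7 of 8 animals, with Angus animal 4 the exception. In Holstein cultures C1R rose 1.64, 2.29, 2.13 and 1.62-fold (fitted log2 0.93, SE 0.3, FDR = 0.0197) and C1S had ratios of 1.37, 1.74, 1.76 and 1.35 (0.61, SE 0.3, FDR = 0.175). In Holstein cultures 4 of 7 members (CFB, C2, C3 and C1R) thus passed the FDR limit alone at 8 h, beside 14.7% of all rows. The C1R test was not passed without Holstein 1 (FDR = 0.0831), Holstein 2 (FDR = 0.117) or Holstein 4 (FDR = 0.0999), without the samples with the other COL1A1 counting (1.1, FDR = 0.0865), nor in the quasi-likelihood test (FDR = 0.0663). In Angus cultures the log2 change at 8 h was 0.34 for C1R (SE 0.68, FDR = 0.913) and 0.3 for C1S (SE 0.72, FDR = 0.932).

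In Angus cultures the spread between animals (SD) exceeded the change in mean level from 0 to 8 h in both proteases. Mean C1R there went from 4.82 CPM (SD 3.53) to 6.12 CPM and C1S from 14.7 CPM (SD 11.3) to 18.2 CPM. In Holstein cultures the change was larger than the SD. Mean C1R went from 5.37 CPM (SD 1.61) to 10.2 CPM (SD 3.47) and C1S from 24.2 CPM (SD 7.74) to 36.9 CPM (SD 11.9). With the animal as a block, C1R changed by 0.64 (SE 0.14, FDR = 3.93e-05) and C1S by 0.47 (SE 0.1, FDR = 1.57e-05) at 8 h with the breeds combined, against an FDR of 0.309 and 0.551 without it. In the blocked fit of 8 h against 0 h, 5 of 7 members (CFB, C2, C3, C1R and C1S) passed the FDR limit, beside 40.7% of all rows. From 2 to 8 h the blocked changes were 0.81 for C1R (FDR = 2.23e-06) and 0.42 for C1S (FDR = 1.02e-06), against an FDR of 0.111 and 0.546. Blocked values in Holstein cultures were 0.93 for C1R (FDR = 1.37e-11) and 0.63 for C1S (FDR = 3.87e-10). At 2 h C1R was lower in 7 of 8 animals, with a blocked change of -0.17 (FDR = 0.0444), whereas C1S was higher in 6 of 8 (blocked 0.05, 95% interval -0.07 to 0.17, FDR = 0.531). The FDR limit was passed by 9575 of 20157 rows in this blocked 2 h fit. The breeds did not differ beyond their spread at 8 h in C1R (log2 0.74, 95% interval -0.29 to 1.76, FDR = 0.356) or C1S (1.02, -0.05 to 2.08, FDR = 0.198), although without Angus animal 3 the C1S difference was 1.49 (FDR = 0.0288).

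The inhibitors CFI and CD55 stayed near their starting level. CFI ranged from 3.54 to 4.84 CPM over all 24 samples, and its log2 change was -0.07 at 2 h (95% interval -0.25 to 0.12, FDR = 0.729) and 0.1 at 8 h (-0.1 to 0.29, FDR = 0.611). The reads credited to CFI differed in shape from those of the other members. They covered 97.7 to 99.8 bases per count in the usual samples, and their greatest depth at any base was 31.4% of the count (median), against 4.0% to 8.2% for CFB, C2, C3, C1R, C1S and CD55. Among 3821 named rows of 200 to 1000 counts the medians were 82.1 bases and 8.0%, and 8.8% of those rows were at or above CFI in depth. A large share of the CFI reads thus lay on 1 stretch of its row, and whether they derive from spliced CFI transcripts was not tested.

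CD55, which shields cells from their own complement, ranged from 2.71 to 10.0 CPM. Holstein animal 4 was the lowest Holstein culture at each hour with 2.71, 2.98 and 4.98 CPM, and at 8 h Angus animal 1 was lower (4.63 CPM). The log2 change of CD55 at 8 h was 0.2 with the breeds combined (95% interval -0.23 to 0.64, FDR = 0.639) and 0.07 in Angus cultures (-0.46 to 0.59, FDR = 0.969). In Holstein cultures it was higher in 4 of 4 animals at 8 h by 1.16 to 1.84-fold, with a log2 change of 0.36 (SE 0.34, FDR = 0.582) and a blocked value of 0.41 (SE 0.14, FDR = 0.0115). In that blocked fit 7210 of 20489 rows passed the FDR limit.

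SERPING1 did not reach the CPM filter in any comparison. It ranged from 0.0331 to 1.13 CPM, with the same low pair of Angus animals (1 and 4) as C1R and C1S. At 2 h it was above its 0 h level in 4 of 4 Holstein animals, at 0.863, 1.13, 0.274 and 0.412 CPM against 0.269, 0.351, 0.164 and 0.176 CPM, ratios of 1.68 to 3.23. The mean paired change in log2(CPM + 1) was 0.402 in Holstein (exact paired permutation P = 0.125, the smallest that 4 pairs allow) and -0.005 in Angus cultures (P = 1.0), both two-sided. The breed difference of that change was 0.407 (exact permutation P = 0.02857, the smallest possible with 4 against 4), which after adjustment over the 31 such tests was 0.749. By 8 h the SERPING1 change was 0.023 over both breeds (exact paired permutation P = 0.9141).

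CFD, the protease that activates factor B, was at the edge of detection. It had 0 counts in 3 of 24 samples and fewer than 3 counts in 10, and its highest level was 0.184 CPM in Angus animal 3 at 2 h. Its paired change in log2(CPM + 1) was 0.025 at 2 h (exact paired permutation P = 0.2734) and -0.007 at 8 h (P = 0.6406). A fall or a small change in CFD was therefore not detectable at this depth.

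**Figure D4:**
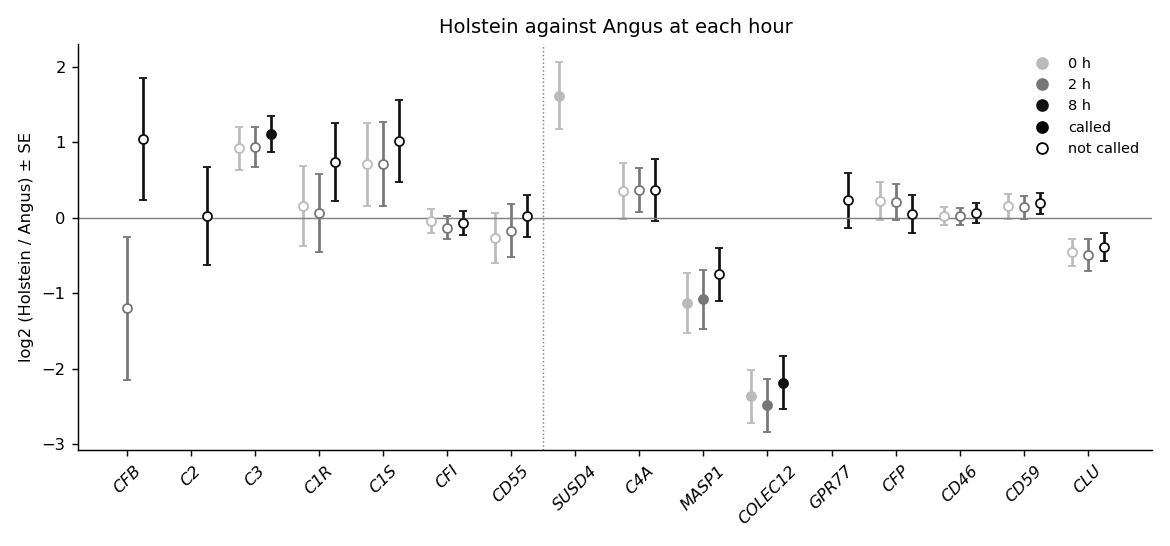
Log2 difference of Holstein against Angus cultures with its standard error (y axis) at 0, 2 and 8 h for the tested members (left of the dotted line) and other complement genes (right of it) on the x axis, with 4 animals per breed and hour. Filled points passed the call rule. C3 was called at 8 h and COLEC12 lay between -2.49 and -2.19 at all hours.

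Of 46 other genes of the pathway, 42 had a row, 4 of these had 0 counts in every sample, and 15 were tested in at least 1 comparison. With LPS, 1 of 15 was called at 8 h against 0 h. This was GPR77, which encodes a second receptor for the fragment C5a and rose 2.91-fold (log2 1.54, SE 0.25, FDR = 5.69e-08). In GPR77 the change was 1.87 in Holstein (SE 0.36, FDR = 7.88e-06) and 1.25 in Angus cultures (SE 0.33, FDR = 0.00882). At 2 h 0 of 14 were called and 1, CFP, passed the FDR limit alone (22.0% of all rows did). CFP encodes properdin, which stabilises the alternative C3-cleaving enzyme, and had a log2 change of 0.82 at 2 h against 0 h (SE 0.17, FDR = 1.7e-05) and of -0.94 at 8 h against 2 h (FDR = 3.72e-07).

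Breed differences were also seen outside the members. COLEC12, a scavenger receptor with a collectin domain, was lower in Holstein cultures at all hours, with 0.947 to 2.18 CPM against 4.89 to 12.8 CPM at 0 h and a log2 difference of -2.37 (SE 0.35, FDR = 2.93e-08). MASP1, a protease of the lectin route, was lower at 0 h (log2 -1.13, FDR = 0.041) and 2 h (-1.08, FDR = 0.0341). SUSD4, a membrane inhibitor, was higher at 0 h (1.62, FDR = 0.00525). The other members of the list named in any case, C4A, CD46, CD59 and CLU, were not called in any comparison, and C5 was at a median of 0.54 CPM.

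The rows most alike in pattern were found by Pearson's r of log2(CPM + 1) over the 24 samples, which share animals and hours, among 12957 rows. For CFB these were LOC100848019 (r = 0.95), CHST11 (0.936) and NFKB2 (0.934). For C1R the first was C1S (0.927), followed by ATP10D (0.917) and BOLA-A (0.904). C1S was closest to PI15 (0.958), COL18A1 (0.946) and PRSS35 (0.937). C3 was closest to ENOX1 (0.925), BNC2 (0.923) and VSIG8 (0.894). For CD55 the highest value was 0.81 with HOMER2 and for CFI 0.75 with RAD23B.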

How the data were processed

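Fibroblast RNA of 24 samples was sequenced as polyadenylated libraries (RNA integrity number of at least 9.5). The authors aligned the reads to UMD v3.1 with NextGENe 2.3.4 and deposited raw whole-number counts per row, without normalization. The average and maximum coverage signal deposited beside the counts was used only to describe how reads were spread. Each row spans a gene with its introns, and a read could count for more than 1 row. The members and gene lists were chosen with earlier results of these data known.

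Groups and animal numbers came from the labels. Rows with at least 1 CPM in 50% of the samples compared were kept and TMM-scaled. Each of 12 comparisons was fitted on its own samples with the edgeR 4.0.16 likelihood-ratio test (R 4.3.3) and Benjamini-Hochberg adjustment over all rows kept. This follows the study's methods, and TMM scaling was added. Members under the filter had exact two-sided permutation tests on log2(CPM + 1). All 9 members were named in every comparison, with other complement genes called in any comparison, of which some are not reported here. The scripts were tested on simulated data without differences between animals, so that test does not cover the effect of the animal block.

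Same-numbered samples of a breed came from the same animal. Their deviations from group means correlated (mean r = 0.658 for 0 and 2 h, lowest 0.545, and 0.619 for 0 and 8 h, lowest 0.533), so the animal served as a block in an alternative fit. Between other animals of the breed mean r was -0.218 and -0.205. Deviations within a group cancel out, so these negative values follow from the positive ones and give no separate evidence of pairing. Other alternatives were RLE scaling, library totals, a filter of 10 counts, no filter, the quasi-likelihood test, DESeq2 1.42.0, the FDR limit alone, leaving out each animal and leaving out the 4 samples with other COL1A1 counting. No samples were left out of the main comparisons.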

Additional observations from a re-analysis of the deposited data

Results flagged for a closer look

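Among the 54 groups of 4 values of the 9 members, 3 held a value far from the others, a share close to the 1 in 20 that chance gives. The gaps were measured in CPM and not on a log scale. CFB in Angus animal 3 stood apart at 2 h, at 54.4 CPM with 4.53 CPM next, and at 8 h, at 186.0 CPM with 30.4 CPM next. The same animal was also the highest Angus culture at 0 h (2.52 CPM). CFI in Angus animal 2 was the lowest of its group at 2 h, at 3.66 CPM with 4.08 CPM next.

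The response of CFB to 8 h of LPS differed between the breeds when the animal was a block, by 1.82 on the log2 scale and larger in Holstein cultures (FDR = 0.0118), but not in the fit without the block (1.57, FDR = 1). Leaving out an animal in turn in the unblocked fit gave 1.29 to 2.18, with an FDR of at least 0.91, and this was not done in the blocked fit.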

How the results depend on the processing

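The value of each tested member kept its side of the FDR limit in 76 of 76 cases with DESeq2, 77 of 77 with RLE scaling, 77 of 77 with a filter of 10 counts and 72 of 77 with the quasi-likelihood test. With the replicate block 47 values kept their side and 12 passed the limit only in that fit. Without the samples with another counting of COL1A1, 66 kept their side and 4 no longer passed. With an animal left out, permutation tests included, 687 kept their side, 8 passed only then and 22 no longer passed. Direction was compared only where a value passed the limit in either fit, and no such value changed direction. DESeq2 gave no adjusted P for CFB in Angus cultures at 2 h. Members called changed as follows. The FDR limit alone gave 4 in Holstein cultures at 8 h and 1 between breeds at 0 h and 1 at 2 h. The quasi-likelihood test gave 0 in Angus cultures at 2 h and 0 at 8 h. Without the samples with another counting of COL1A1, 0 were called in Angus cultures at 2 h, 1 between breeds at 2 h and 3 in place of 2 in Holstein cultures at 8 h (with C3). Library totals also gave 3 there (with C1R). The replicate block gave 2 in Angus cultures at 8 h and 1 in the test of breed by LPS at 8 h. With each animal left out, calls ranged from 1 to 2 at 8 h with the breeds combined, from 0 to 1 in Angus cultures at 2 h, and between breeds from 0 to 1 at 0 h, 0 to 1 at 2 h and 0 to 3 at 8 h (3 without Angus 3, when CFB, C3 and C1S were called). The block changed no call but those given in the report. Over all rows and alternatives, breed calls ranged from 258 to 1120 at 0 h and from 446 to 1128 at 8 h, those of breed by LPS from 16 to 126 at 2 h and from 0 to 100 at 8 h, and those in Angus cultures at 8 h from 90 to 254. The causes were not tested. CFD and SERPING1 stayed under the CPM filter, and depth limited CFD, which had fewer than 3 counts in 10 samples.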
